A study of Homo sapiens with 9 samples.

Results

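GLDC, AMT, GCSH and DLD encode the 4 proteins of the glycine cleavage system, and SHMT1, MTHFD1, MTHFD1L and ALDH1L2 encode enzymes that move the released carbon unit through the folate pool. These 8 genes were chosen by their symbols as enzymes of glycine and folate metabolism, with earlier results of the same libraries known, GLDC for its difference between SGPL1 knockout and control cells. They are 8 of the 60671 genes listed in the count files, and 7 of them were among the 13390 genes that passed the filter on low counts. Their values in every comparison below are therefore a description, without p-values, and where they are counted by a threshold the count only places them beside all genes and is no test of them. AMT did not pass the filter, and ALDH1L2 passed only through the cells in which it was high.

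Poly-A selected RNA was sequenced from N/TERT, a human cell line of skin keratinocytes that telomerase has immortalised. Cells in which CRISPR had knocked out SGPL1 (KO), cells that overexpressed it (OE) and control cells of wild-type genotype (control) gave 3 libraries each, all from untreated cultures. SGPL1 encodes sphingosine-1-phosphate lyase, which breaks down the signalling lipid sphingosine-1-phosphate, and the series concerns the scaling skin disorder seen when that enzyme is lacking. Libraries of a group are biological replicates in the submitters' words. The number of edited clones, the guides and the construct and promoter that drove SGPL1 in OE cells are not given in the sources used here, so the p-values measure the spread between these libraries.

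The glycine cleavage system sits in mitochondria. GLDC, the P protein, uses pyridoxal phosphate to remove the carboxyl group of glycine and passes the rest to the lipoate arm of GCSH, the H protein. AMT, the T protein, releases ammonia and hands the remaining carbon to tetrahydrofolate, and DLD, the L protein, re-oxidises the lipoate and serves the pyruvate, 2-oxoglutarate and branched-chain ketoacid dehydrogenases as well. SHMT1 interconverts serine and glycine in the cytosol, also with pyridoxal phosphate, the cofactor that SGPL1 itself uses. MTHFD1 is the trifunctional folate enzyme of the cytosol, MTHFD1L makes formate from 10-formyltetrahydrofolate in mitochondria, and ALDH1L2 oxidises mitochondrial 10-formyltetrahydrofolate to carbon dioxide. Loss of GLDC or AMT function in people causes nonketotic hyperglycinaemia.

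Of the 8 genes, 7 had a promoter in a RefSeq table of GRCh38.p14, and ALDH1L2 is named only. The 250 bases before the start of GLDC are shown because GLDC differed most between the groups. They lie at chr9:6645730-6645979 on the minus strand, and the capitals mark a CCAAT box read on the opposite strand, 54 bases before the start.

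GLDC promoter: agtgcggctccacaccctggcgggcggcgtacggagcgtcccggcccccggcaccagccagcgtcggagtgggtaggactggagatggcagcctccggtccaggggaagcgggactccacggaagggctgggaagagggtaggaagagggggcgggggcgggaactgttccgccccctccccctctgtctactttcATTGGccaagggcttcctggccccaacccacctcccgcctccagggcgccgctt

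This stretch was 70.8% G or C and held 19 CpG, against medians of 58% and 11 over 27305 promoters of the same length. It contained neither TGATGNAA, the C/EBP-ATF response element bound by ATF4, nor the E-box CACGTG, both searched on both strands.

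MTHFD1L was the only one of the 7 with TGATGNAA, at 129 bases before its first listed start. The 30 bases around it are shown because MTHFD1L had the largest differences among the folate enzymes with more than a few counts. They lie at chr6:150866346-150866375 on the plus strand, in an exon annotated by Ensembl, and the capitals mark the element.

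MTHFD1L site: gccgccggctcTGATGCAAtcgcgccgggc

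TGATGNAA was found in 3.19% of all promoters, CACGTG in 6.49% and CCAAT, on either strand, in 33%. Among the 7 promoters, CACGTG occurred in MTHFD1, 15 bases before the start, and in MTHFD1L, 154 bases before it, and CCAAT in 6, all but that of DLD. Among 61 promoters of the pathway lists described below, TGATGNAA was not found, CACGTG was found in 4 and CCAAT in 28. Only the first start listed for each gene was used. The window of another listed start of MTHFD1L ends at 150866332, before the TGATGNAA match. All 250 bases of the MTHFD1 and AMT windows lie in annotated exons. A match is a match of letters and not evidence of binding.

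The libraries held 6317564 to 13330479 counts, and 3 counts were worth 0.225 to 0.475 per 1e6 counts before TMM scaling. Levels below are in CPM, counts per 1e6 counts of a library after TMM scaling. SGPL1, counted over all its exons, had 58.7, 58.2 and 61.4 CPM in KO libraries, 1130, 1102 and 927 CPM in OE libraries and 83.8, 94.9 and 98.1 CPM in control libraries. Its log2 fold change against control was -0.64 ± 0.09 (SE) in KO cells and 3.51 ± 0.09 in OE cells, with edgeR quasi-likelihood p-values adjusted by Benjamini-Hochberg of 5.14e-06 and 4.90e-18, and both went the way of the labels. Whether SGPL1 transcripts left in KO cells were edited cannot be read from gene counts. All 10 keratinocyte markers had counts in every library, with a summed level of 15080 to 16213 CPM in KO, 26577 to 27846 CPM in OE and 24568 to 24916 CPM in control libraries. Fibroblast markers summed to at most 28.3 CPM, with COL3A1 and LUM at 0 in all groups. Melanocyte markers summed to at most 101 CPM, with TYR, DCT and SOX10 at 0. Of these 7 markers, 3 had counts in every OE library, 3 in every control library and 2 in every KO library. Blood and endothelial markers summed to at most 9.11 CPM, with PTPRC, CD3E, CD68, PECAM1 and HBB at 0. In bulk RNA, fewer cells that express a gene and less RNA of it per cell cannot be told apart.

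The KO comparisons carried a trend over exon length and GC content of the genes. Against control, the decile of genes with the shortest exons had a median log2 fold change of 0.52 and the decile with the longest one of -0.45, while in OE cells these medians were -0.03 and -0.06. Values called corrected come from a fit in which this trend was removed from each library, which left medians of 0.15 and -0.02 in the KO comparison. The 7 enzymes that passed the filter have 3640 to 12208 exon bases, and both values are given for them in KO against control.

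GLDC (ENSG00000178445; GRCh38 chromosome 9, 6532467 to 6645729, minus strand) was high in KO cells, lower in control cells and lowest in OE cells. It had 30.3, 27.3 and 26.2 CPM in KO libraries, 0.663, 1.21 and 1.24 CPM in OE libraries and 3.05, 3.26 and 3.70 CPM in control libraries. The 3 groups did not overlap, and every KO library was above every control library, which was above every OE library. The mean was 27.9 ± 2.15 CPM in KO cells, 1.04 ± 0.323 CPM in OE cells and 3.34 ± 0.332 CPM in control cells (SD, n = 3 each). This is 8.37-fold higher in KO than in control cells, with a log2 fold change of 3.06 ± 0.21 (SE), corrected 3.46 ± 0.21. In OE cells GLDC was 3.22-fold lower than in control cells, with a log2 fold change of -1.64 ± 0.29, corrected -1.60. Between KO and OE cells the log2 fold change was 4.70 ± 0.24, corrected 5.07. The comparisons share their control or KO libraries and are not independent of each other.

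The counts behind these levels were small outside KO cells. GLDC had 252, 244 and 155 counts in KO libraries, 6, 12 and 17 in OE libraries and 28, 31 and 33 in control libraries. By counting error alone, the ratio of KO to control was 8.43 (95% exact interval 6.77 to 10.6) and that of KO to OE 26.3 (18.7 to 38.1). Control exceeded OE 3.12-fold (2.09 to 4.74). Such intervals cover counting error only and take each count as independent. They leave out the spread between libraries and are no test of GLDC, which was chosen for its KO value. They are too narrow if the mates of a pair were counted separately. Leaving out each library in turn gave log2 fold changes of 3.00 to 3.14 for KO against control and -1.79 to -1.44 for OE against control.

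Among 13390 genes, GLDC had rank 8 from the highest log2 fold change in KO against control, and rank 131 from the lowest in OE against control. No exon base of GLDC was shared with another annotated gene. Its pseudogene GLDCP1 had 4 counts in KO, 0 in OE and 1 in control libraries in all, and a long noncoding RNA on the opposite strand (ENSG00000236924) had 0 to 3 counts in a library.

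Of the other genes of the glycine cleavage system, DLD differed little beside GLDC, while GCSH and AMT were poorly measured. DLD (ENSG00000091140; chromosome 7, 107891162 to 107931730, plus strand) had 176.0, 175.6 and 200.7 CPM in KO libraries, 124.4, 125.2 and 121.6 CPM in OE libraries and 153.9, 154.6 and 138.6 CPM in control libraries. The groups did not overlap, in the same order as GLDC. The log2 fold change of DLD was 0.30 ± 0.08 in KO against control, but 0.10 ± 0.07 when corrected, and -0.27 ± 0.08 in OE against control, corrected -0.28. The median of the 20 tested genes around DLD on chromosome 7 was 0.45 in KO against control, corrected 0.30, above the value of DLD itself.

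GCSH (ENSG00000140905; chromosome 16, 81081945 to 81096395, minus strand) had 4.81, 6.04 and 8.27 CPM in KO libraries, 4.75, 3.82 and 5.24 CPM in OE libraries and 4.79, 3.995 and 6.06 CPM in control libraries. The 3 groups overlapped. Its log2 fold change was 0.35 ± 0.28 in KO against control and -0.004 when corrected, and in OE cells it was -0.09 ± 0.28. GCSH is uncertain in any case, because its pseudogene GCSHP5 drew about as many reads, with 6.06 ± 1.08 CPM in KO, 4.06 ± 0.281 CPM in OE and 4.71 ± 2.15 CPM in control cells.

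AMT (ENSG00000145020; chromosome 3, 49416778 to 49422685, minus strand) had 0 counts in all 3 KO libraries, 0, 0 and 2 counts in OE libraries and 0, 2 and 0 counts in control libraries, at or under 3 counts in each. However, 62.6% of its exon bases were shared with a readthrough gene (ENSG00000283189) and 6.22% with NICN1, and both of these had 0 counts in all libraries. Reads in shared exons may not have been assigned to any gene, so the low counts do not show that AMT was absent. The summed level of the 4 proteins was 218 ± 14.5 CPM in KO, 129.4 ± 1.05 CPM in OE and 157 ± 7.84 CPM in control cells (SD, n = 3 each), and most of it was DLD.

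**Figure D1:**
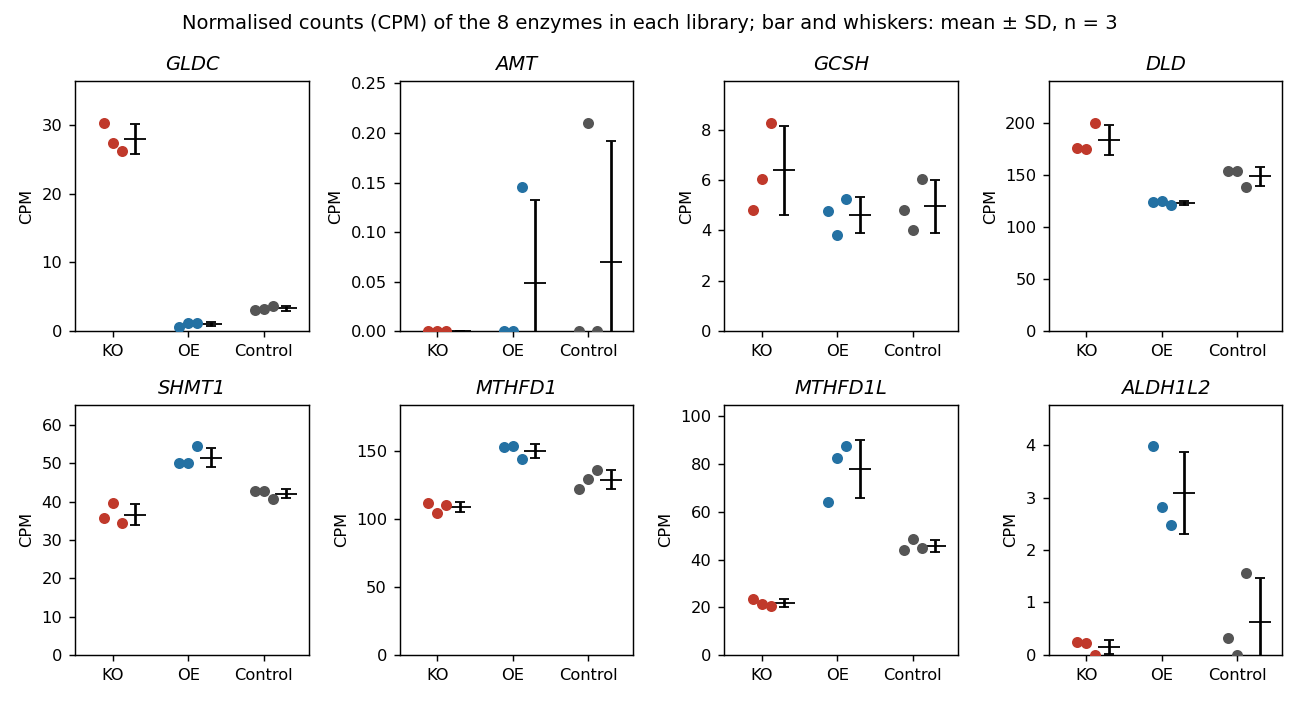
CPM (vertical axes, each from 0 with its own scale) of the 8 enzymes in the 3 KO, 3 OE and 3 control libraries; points are libraries, and the bar with whiskers is the mean ± SD. GLDC lies between 26.2 and 30.3 CPM in KO libraries and below 4 in the others, while MTHFD1L has the reverse order, with KO below control and OE above it.

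The plot of CPM by library sets the 4 cleavage proteins in its upper row and the 4 folate enzymes in its lower row. In the upper row GLDC stands out by the gap between KO and all other libraries, while the DLD groups are apart by small steps. In the lower row all 4 enzymes have their highest points in OE libraries.

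MTHFD1L (ENSG00000120254; chromosome 6, 150865549 to 151101887, plus strand), the mitochondrial formyltetrahydrofolate synthetase, was low in KO cells and high in OE cells. It had 23.6, 21.4 and 20.4 CPM in KO libraries, 64.2, 82.4 and 87.4 CPM in OE libraries and 43.8, 48.5 and 44.7 CPM in control libraries. No groups overlapped, and the order was the reverse of that of GLDC. The level was 2.10-fold lower in KO than in control cells, with a log2 fold change of -1.06 ± 0.13, corrected -0.98. In OE cells it was 1.71-fold higher than in control cells, with a log2 fold change of 0.78 ± 0.11, corrected 0.77. KO against OE gave -1.84, corrected -1.75. No exon base of MTHFD1L was shared with another gene, and the 20 tested genes around it had a median of -0.18 in KO against control and 0.08 in OE against control.

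ALDH1L2 (ENSG00000136010; chromosome 12, 105019784 to 105107643, minus strand) had few counts outside OE cells. It had 2, 2 and 0 counts in KO libraries, 36, 28 and 34 counts in OE libraries and 3, 0 and 14 counts in control libraries. This corresponds to 0.241, 0.224 and 0 CPM in KO libraries, 3.98, 2.82 and 2.48 CPM in OE libraries and 0.327, 0 and 1.57 CPM in control libraries. Every OE library was above every other library, and KO and control libraries overlapped. The summed counts of OE exceeded those of control 4.86-fold, as a description, since ALDH1L2 passed the filter only through its OE counts. The log2 fold change was 2.28 ± 0.66. A single control library held 14 of the 17 control counts. Without it the log2 fold change of OE against control was 4.14, and that of KO against control was 0.08 in place of -1.78 ± 1.04, corrected -1.61.

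SHMT1 (ENSG00000176974; chromosome 17, 18327860 to 18363563, minus strand) had 35.7, 39.6 and 34.4 CPM in KO libraries, 50.0, 50.1 and 54.5 CPM in OE libraries and 42.9, 42.7 and 40.7 CPM in control libraries. MTHFD1 (ENSG00000100714; chromosome 14, 64388031 to 64463457, plus strand) had 111.4, 104.3 and 110.0 CPM in KO libraries, 152.7, 153.3 and 144.0 CPM in OE libraries and 121.7, 129.5 and 135.7 CPM in control libraries. In both genes the groups did not overlap, with KO libraries lowest and OE libraries highest. The log2 fold change in OE against control was 0.29 ± 0.10 for SHMT1, corrected 0.30, and 0.22 ± 0.08 for MTHFD1, corrected 0.25. In KO against control the sign turned with the correction. It was -0.20 ± 0.11 for SHMT1, corrected 0.12 ± 0.11, and -0.25 ± 0.08 for MTHFD1, corrected 0.18 ± 0.08. MTHFD1 has 12208 exon bases, of which 12.7% lie opposite a gene on the other strand with 0 to 2 counts in a library.

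**Figure D2:**
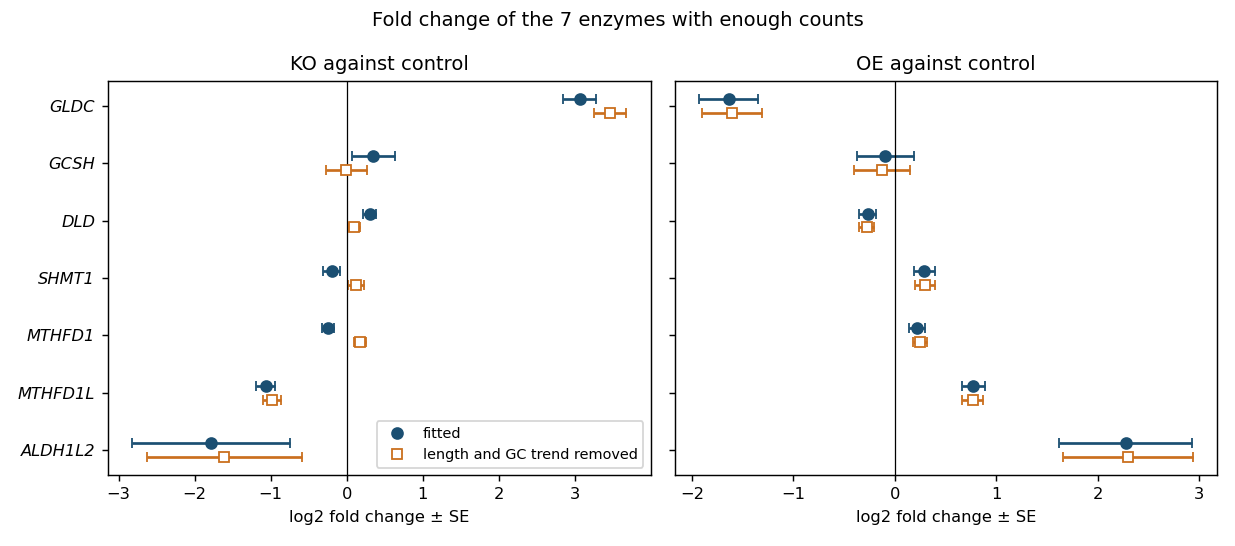
Log2 fold change ± SE (horizontal axis) of the 7 enzymes with enough counts, in KO against control and OE against control; filled circles are the fitted values, and open squares the values with the length and GC trend removed. In KO cells GLDC lies above 3 and MTHFD1L near -1 under both, while the values of SHMT1 and MTHFD1 lie on opposite sides of 0.

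The plot of fold changes with both kinds of value shows how much of each KO value moves with the trend. GLDC moved up by the correction, from 3.06 to 3.46, a shift small only beside its own fold change. MTHFD1L moved from -1.06 to -0.98. The value of GCSH moved from 0.35 to -0.004 and that of DLD from 0.30 to 0.10. Those of SHMT1 and MTHFD1 changed sign, from -0.20 to 0.12 and from -0.25 to 0.18. In OE cells circles and squares lie almost on each other for all 7.

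The following counts place the 7 genes beside all genes at the threshold of an adjusted p under 0.05 in edgeR's quasi-likelihood test. They are no evidence on the members, since GLDC was chosen for its KO value and ALDH1L2 passed the filter through its OE counts. At that threshold 2 of the 7 genes were higher in KO than in control cells (GLDC and DLD) and 2 lower (MTHFD1 and MTHFD1L), in a comparison in which 51.9% of all genes tested were called, 26% higher and 25.9% lower. With the trend removed, 1 was higher and 1 lower (GLDC and MTHFD1L), beside 45.5% of all genes, 24.7% higher and 20.8% lower. In OE against control, 3 were higher (SHMT1, MTHFD1L and ALDH1L2) and 2 lower (GLDC and DLD), beside 18.6% of all genes, 9.28% higher and 9.34% lower. Corrected, these were 4 and 2, beside 21.2%, with 10.6% higher and 10.5% lower. In KO against OE, 2 were higher and 4 lower, beside 57.6%, with 28.6% higher and 29% lower. Corrected, these were 2 and 2, beside 53.2%, with 28% higher and 25.2% lower. Several of these calls were lost when a single library was left out, with fold changes of the same sign. SHMT1 and DLD in OE against control also lost theirs without the filter on low counts, and SHMT1 in DESeq2's Wald test. MTHFD1 in KO against control was not called without control replicate 3 (-0.21) or KO replicate 2 (-0.22), and DLD in OE against control not without control replicate 1 or 2 or OE replicate 2 (-0.28 to -0.24). SHMT1 in OE against control was not called when any library but KO replicate 3 was left out (0.26 to 0.31), and ALDH1L2 in OE against control not without control replicate 1 or 2 or OE replicate 1 (1.69 to 2.06). Libraries did not overlap for 5 of the 7 in KO against control, beside 59.5% of all genes, for 6 in OE against control, beside 34.8%, and for 6 in KO against OE, beside 61.6%. The median log2 fold change of the 7 genes was -0.20 in KO against control (corrected 0.10), 0.22 in OE against control and -0.47 in KO against OE (corrected -0.07), while that of all genes was near 0. Nothing is read from these shares.

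Levels of different genes can be compared only per length, as CPM per kilobase of all annotated exons. On that scale the order in KO cells was DLD with 36.1, MTHFD1 with 8.90, SHMT1 with 5.03, MTHFD1L with 4.34, GLDC with 3.14 ± 0.242, GCSH with 1.75 and ALDH1L2 with 0.0163. In OE cells it was DLD with 24.3, MTHFD1L with 15.5, MTHFD1 with 12.3, SHMT1 with 7.08, GCSH with 1.27, ALDH1L2 with 0.326 and GLDC with 0.117 ± 0.0364. In control cells it was DLD with 29.2, MTHFD1 with 10.6, MTHFD1L with 9.10, SHMT1 with 5.78, GCSH with 1.36, GLDC with 0.376 ± 0.0374 and ALDH1L2 with 0.0666. Neighbours in these orders did not overlap over the 3 libraries of a group, so that GLDC was above GCSH in every KO library and below it in every OE and control library. The place of GCSH is uncertain, because its pseudogene GCSHP5 had 137 counts in KO cells beside 143 of GCSH. The order of GLDC and GCSH in KO cells may therefore depend on how reads were split between the copies. The length sums the exons of all annotated transcripts and not of those used in these cells. The summed CPM of the 4 folate enzymes was 167 ± 3.32 in KO, 283 ± 10.2 in OE and 217 ± 7.56 in control cells (SD, n = 3 each).

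Of the 5 tested genes on either side of GLDC on chromosome 9, IL33, ERMP1 and LURAP1L had the same order of groups as GLDC, KO above control above OE with no overlap. Of all genes tested, libraries did not overlap for 59.5% in KO against control and for 34.8% in OE against control. In ERMP1 and LURAP1L the steps were small, with log2 fold changes of 0.34 ± 0.08 and 0.36 ± 0.17 in KO against control, corrected 0.36 and 0.15, and of -0.23 ± 0.08 and -0.64 ± 0.17 in OE against control. For LURAP1L the lowest KO library had 23.94 CPM and the highest control library 23.86 CPM. Its difference in KO against control was not called (adjusted p = 0.074 by edgeR, corrected 0.449). IL33, the alarmin cytokine of epithelial nuclei, lies 0.352 Mb from GLDC and had 15.9, 15.4 and 16.9 CPM in KO libraries, 0.884, 0.402 and 1.02 CPM in OE libraries and 2.61, 2.63 and 2.24 CPM in control libraries. UHRF2, a ubiquitin ligase gene that lies between them at 0.129 Mb from GLDC, had log2 fold changes of 0.04 ± 0.10 in KO against control (adjusted p = 0.789 by edgeR, corrected 0.27 with adjusted p = 0.0313) and 0.005 ± 0.10 in OE against control (adjusted p = 0.982). KDM4C, the histone demethylase gene on the other side, had -0.51 ± 0.14 in KO against control (adjusted p = 0.00332), which did not hold when corrected (-0.18, adjusted p = 0.286).

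Of the 10 neighbours, 5 were higher and 2 lower in KO than in control cells, or 6 and 1 when corrected, beside 51.9% and 45.5% of all genes called. Against control, OE cells had 2 of them lower and 8 not called, beside 18.6%, or 3 and 7 when corrected, beside 21.2%. The largest value in KO against control among the 10 was that of IL33, at 2.68 ± 0.26, corrected 2.27. RPS26P3, a processed pseudogene whose reads may belong to its parent gene, had 2.51 ± 0.60 (adjusted p = 0.00123). The mitochondrial assembly factor gene DMAC1 had 0.93 ± 0.14 (adjusted p = 8.39e-06, corrected 0.49). The falls of IL33 (-1.65 ± 0.355) and LURAP1L (adjusted p = 0.00993) in OE against control were called, and that of ERMP1 only when corrected (-0.21, adjusted p = 0.0496). The 20 tested genes around GLDC had a median log2 fold change of 0.12 in KO against control and -0.19 in OE against control.

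**Figure D3:**
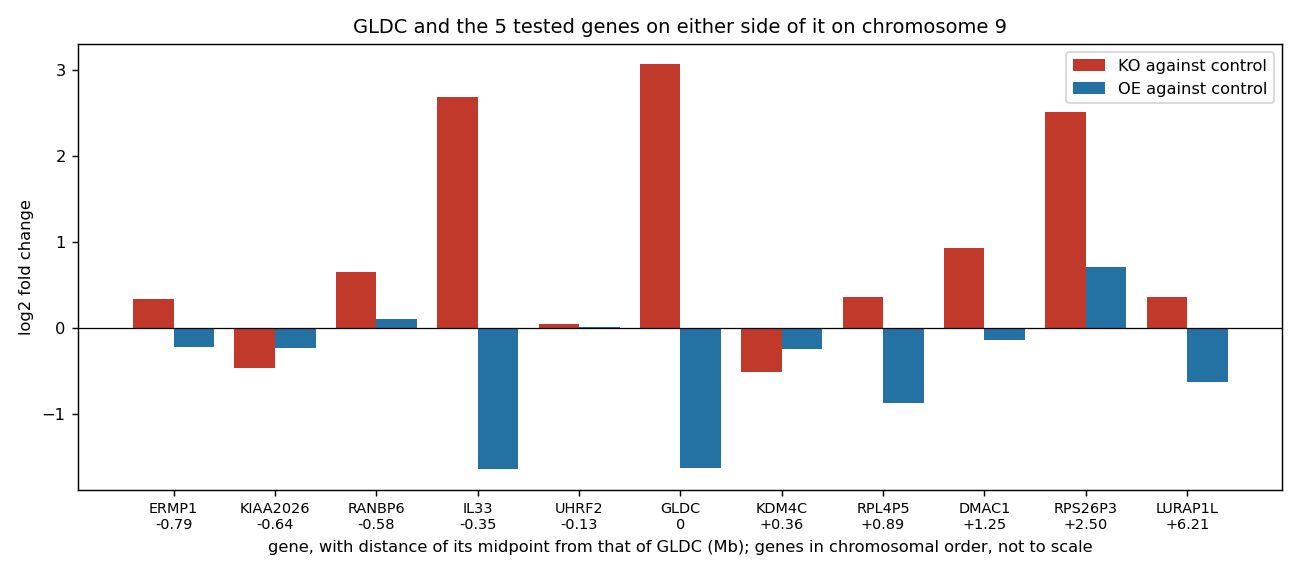
Log2 fold change (vertical axis) of GLDC and of the 5 tested genes on either side of it on chromosome 9, in KO against control and OE against control, with the distance from GLDC in Mb under each name; genes are in chromosomal order and not to scale. GLDC and IL33 are far above 0 in KO and below -1 in OE, and UHRF2 between them is near 0 in both.

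The plot of neighbours along chromosome 9 shows bars that point up in KO and down in OE beyond a log2 change of 1 for GLDC and IL33 alone. RPS26P3 has a tall KO bar, and its OE bar also points up.

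Over the 9 libraries, the protein-coding genes whose centred log2 CPM lay nearest to that of GLDC, among 10166 with a mean of at least 5 CPM, were IL33, HPGD, HOPX, PADI3 and CLCA4. Their Euclidean distances from GLDC were 1.30, 1.49, 1.59, 1.62 and 1.88, and their Pearson correlations with it over 9 libraries, which fall into 3 groups, were 0.976, 0.980, 0.961, 0.965 and 0.947, as a description. HPGD, the enzyme that inactivates prostaglandins, averaged 102.7 ± 9.10 CPM in KO, 7.78 ± 1.21 CPM in OE and 22.7 ± 4.83 CPM in control cells. HOPX, a homeodomain protein of differentiating epithelia, averaged 37.5 ± 4.90 CPM in KO, 1.89 ± 0.593 CPM in OE and 7.20 ± 2.63 CPM in control cells. PADI3, a peptidylarginine deiminase of the upper epidermis and hair follicle, averaged 11.7 ± 3.01 CPM in KO, 0.628 ± 0.327 CPM in OE and 2.75 ± 0.439 CPM in control cells. CLCA4 averaged 28.6 ± 3.10 CPM in KO, 1.64 ± 0.493 CPM in OE and 8.21 ± 0.817 CPM in control cells. None of the 5 takes part in glycine or folate metabolism by its known role, and they were picked for their likeness, so no test is given.

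**Figure D4:**
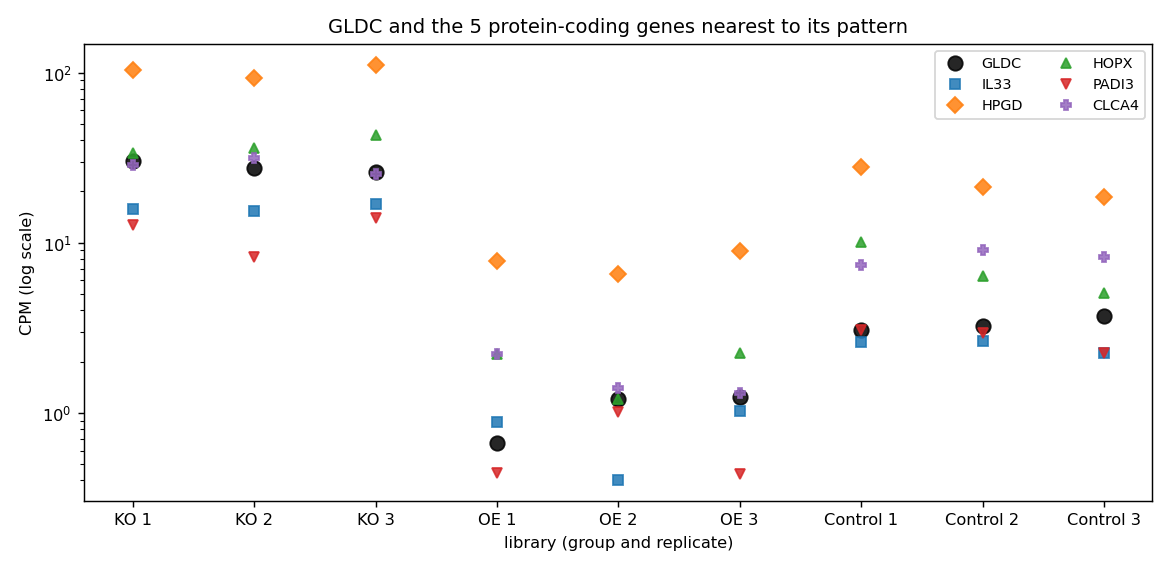
CPM (vertical axis, log scale) of GLDC and of the 5 protein-coding genes nearest to it in centred log2 CPM, in each of the 9 libraries (horizontal axis, KO, OE and control). All 6 genes are highest in the 3 KO libraries and lowest in the 3 OE libraries.

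The plot of CPM for the nearest genes shows the same 3 steps for each gene at a different height, with HPGD highest throughout. Every KO library lies well above the other libraries of the same gene. Between OE and control the spread within a group can match the gap. IL33 had 0.402 to 1.02 CPM in OE libraries and at least 2.24 CPM in control libraries. HOPX had 5.05 to 10.1 CPM in control libraries and at most 2.26 CPM in OE libraries.

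For the rest of the pathway, 6 lists with 75 genes were counted, of which 54 had enough counts, and these genes are not members. They carry adjusted p-values of edgeR's quasi-likelihood test over all 13390 genes. The lists were also chosen with earlier results of these data known, and the genes named are called ones of smallest p. The p-values and shares therefore describe picked genes and are no independent test of the pathway. In KO against control 22 of the 54 were higher and 13 lower, 64.81% in all. Of all genes 51.9% were called, 26% higher and 25.9% lower. Corrected, these were 24 and 12, or 66.67% beside 45.5%. OE cells had 16 higher and 4 lower than control cells, 37.04% beside 18.6% of all genes, 9.28% higher and 9.34% lower. In KO against OE 13 were higher and 20 lower, 61.11% beside 57.6%, 28.6% higher and 29% lower. The counts of each list below stand beside these same shares of all genes.

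The other folate enzymes did not move as a block in KO cells. Of 14 tested, 6 were higher and 2 lower than in control cells, with a median log2 fold change of 0.31, or 6 and 1 when corrected. MTR, the methionine synthase that takes its methyl group from folate, fell by 0.76 ± 0.12 (adjusted p = 1.37e-05, corrected -0.38), with 26.8 ± 1.16 CPM in KO and 45.3 ± 4.75 CPM in control cells. The 20 tested genes around MTR on chromosome 1 had a median of 0.63, so MTR went against its surroundings. MTRR, the reductase that reactivates MTR, rose by 0.68 ± 0.12 (adjusted p = 4.43e-05, corrected 0.64), with 48.8 ± 2.01 CPM in KO and 30.6 ± 4.60 CPM in control cells, and the 20 genes around it on chromosome 5 had a median of 0.66. MTHFD2, the mitochondrial methylenetetrahydrofolate dehydrogenase that works before MTHFD1L, rose by 0.59 ± 0.12 (adjusted p = 0.000279, corrected 0.41), while MTHFD1L was lower.

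In OE cells 5 of these 14 rose against control and 9 were not called, with a median of 0.23. MTHFD2 had 53.9, 60.7 and 63.1 CPM in KO libraries, 79.3, 106.9 and 116.1 CPM in OE libraries and 40.1, 38.6 and 39.1 CPM in control libraries. All 3 groups were apart, and it rose in OE against control by 1.36 ± 0.12 (adjusted p = 2.23e-08), though 33.6% of its exon bases are shared with other genes. SHMT2, the mitochondrial serine hydroxymethyltransferase, rose by 0.56 ± 0.08 (adjusted p = 1.69e-05), with 230.1 ± 18.3 CPM in OE and 155.8 ± 6.32 CPM in control cells. In KO cells SHMT2 had 153.7 ± 4.61 CPM, with a log2 fold change against control of -0.02 ± 0.08 (adjusted p = 0.859). GART, of purine synthesis, rose in OE cells by 0.37 ± 0.08 (adjusted p = 0.00231). KO against OE gave 4 higher and 5 lower, among them ALDH1L1, the cytosolic counterpart of ALDH1L2, with 2.06 ± 0.856 CPM in KO and 0.122 ± 0.112 CPM in OE cells (3.90 ± 0.76, adjusted p = 0.00012). ALDH1L1 was thus high where ALDH1L2 was low, both at levels of a few CPM at most.

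Of 4 tested genes of folate transport and retention, GGH, which trims the polyglutamate tail of folates, rose in KO against control by 0.64 ± 0.13 (adjusted p = 0.000161, corrected 0.33). SLC46A1, the proton-coupled folate transporter, rose by 1.43 ± 0.54 (adjusted p = 0.0312) at 1.94 ± 0.664 CPM in KO and 0.732 ± 0.357 CPM in control cells, and 60.6% of its exon bases are shared with other genes. That call was lost when control replicate 1 or 2 or KO replicate 1 or 2 was left out, with adjusted p from 0.0762 to 0.121. SLC19A1, the reduced folate carrier, rose in OE against control by 0.96 ± 0.16 (adjusted p = 0.00011), with 27.5 ± 1.53 CPM in OE and 14.2 ± 2.19 CPM in control cells. In KO against OE it was lower by a log2 value of -1.33 (adjusted p = 3.30e-07, corrected -0.53).

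Serine synthesis and import genes were higher in OE cells. Of 13 tested genes of serine and glycine synthesis, transport and use, 7 rose and 1 fell in OE against control. Of all genes 9.28% rose and 9.34% fell. The median of the list was 0.70. PSAT1, the transaminase in the middle of serine synthesis, had 58.8, 58.0 and 63.5 CPM in KO libraries, 227.9, 294.5 and 328.3 CPM in OE libraries and 87.5, 80.7 and 87.9 CPM in control libraries. The groups were apart, in the order of MTHFD1L. PSAT1 rose in OE against control by 1.73 ± 0.10 (adjusted p = 3.45e-11) and fell in KO against control by 0.51 ± 0.11 (adjusted p = 0.000434, corrected -0.95). PHGDH, at the entry of the pathway, rose in OE cells by 0.96 ± 0.10 (adjusted p = 1.42e-07), with 158.7 ± 15.2 CPM in OE and 81.5 ± 7.35 CPM in control cells.

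PHGDH in KO against control had a log2 fold change of 0.02 (adjusted p = 0.885), but 0.45 when corrected (adjusted p = 0.000492). PSPH, the last enzyme of serine synthesis, rose in both, by 0.69 ± 0.15 in KO cells (adjusted p = 0.000492, corrected 0.47) and by 0.87 ± 0.15 in OE cells (adjusted p = 0.000135). The 20 tested genes around PSPH on chromosome 7 had a median of 0.47 in KO against control, corrected 0.23. In OE against control that median was 0.04. The neutral amino acid carrier SLC1A4 rose in OE against control by 1.81 ± 0.17 (adjusted p = 5.95e-08) and SLC1A5 by 0.88 ± 0.10 (adjusted p = 5.79e-07), though 23.8% of the exon bases of SLC1A5 are shared with other genes.

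SLC6A9, the glycine transporter GlyT1, had 18.3, 16.6 and 15.7 CPM in KO libraries, 42.1, 63.9 and 47.5 CPM in OE libraries and 31.1, 26.2 and 27.7 CPM in control libraries. The groups were apart, with KO lowest, opposite to GLDC. SLC6A9 fell in KO against control by 0.74 ± 0.15 (adjusted p = 0.000265, corrected -0.44) and rose in OE against control by 0.85 ± 0.14 (adjusted p = 9.32e-05). SFXN3, a mitochondrial serine carrier, fell in KO against control by 0.51 ± 0.10 (adjusted p = 0.000266, corrected -0.37). Over the list in KO against control, 6 rose and 3 fell, with a median of 0.16, corrected 0.33. The median of the 13 in KO against OE was -0.18.

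In the methionine cycle, 2 of 7 tested genes rose and 4 fell in KO against control, with a median of -0.25. AHCY, which splits S-adenosylhomocysteine, had 1119, 1291 and 1359 CPM in KO libraries, 529, 553 and 615 CPM in OE libraries and 578, 597 and 577 CPM in control libraries. All KO libraries were above all others, and AHCY rose in KO against control by 1.11 ± 0.08 (adjusted p = 2.94e-10, corrected 1.18). In OE against control its log2 fold change was -0.05 ± 0.08. MAT2B, the regulatory subunit of methionine adenosyltransferase, rose in KO cells by 0.85 ± 0.09 (adjusted p = 4.49e-08, corrected 0.60), and MAT2A, the catalytic subunit, fell by 0.53 ± 0.10 (adjusted p = 8.83e-05, corrected -0.68). AHCYL2, a homologue of AHCY, fell by 0.81 ± 0.12 in KO cells (adjusted p = 5.67e-06) and by 0.47 ± 0.12 in OE cells (adjusted p = 0.00495).

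Of these 7, 2 rose and 1 fell in OE against control. CBS, the entry of transsulfuration, had 3.01, 1.46 and 2.36 CPM in KO libraries, 24.5, 13.1 and 22.1 CPM in OE libraries and 7.19, 3.995 and 3.14 CPM in control libraries. It rose in OE cells by 2.06 ± 0.28 (adjusted p = 1.06e-05). CBS is uncertain, because a near-identical copy on the same chromosome (ENSG00000274276) held up to 81 counts in a library and may have taken part of its reads. MAT2A in OE against control, at 0.28 ± 0.10 (adjusted p = 0.0415), lost its call when any of 6 libraries was left out, all 3 control libraries, KO replicate 2 and OE replicates 2 and 3, with adjusted p up to 0.208.

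Of 12 tested genes of lipoate attachment and of the other complexes that use DLD, 5 rose and 3 fell in KO against control, with a median of 0.24, corrected 0.11. LIAS, which makes the lipoate that GCSH carries, rose by 0.81 ± 0.17 (adjusted p = 0.000325, corrected 1.04), with 21.5 ± 2.84 CPM in KO and 12.4 ± 1.59 CPM in control cells. PDHB, a subunit of pyruvate dehydrogenase, rose by 0.90 ± 0.11 (adjusted p = 4.54e-07, corrected 0.76), while its partner PDHA1 fell by 0.34 ± 0.09 (adjusted p = 0.00237, corrected -0.46), with 21.2% of its exon bases shared with other genes. OGDH, of the 2-oxoglutarate complex, fell by 0.37 ± 0.08 (adjusted p = 0.000577), a call lost when corrected (-0.14, adjusted p = 0.12). Of the 12, only DHTKD1 of lysine breakdown rose in OE against control, by 0.47 ± 0.09 (adjusted p = 0.000407). The branched-chain subunits DBT, by 0.49 ± 0.10 (adjusted p = 0.000777), and BCKDHB, by 0.56 ± 0.14 (adjusted p = 0.00718), fell in OE cells, and BCKDHB was not called without control replicate 1 (-0.37, adjusted p = 0.0987).

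Vitamin B6 supplies the cofactor of GLDC, SHMT1 and SGPL1. Among 4 tested genes of vitamin B6 handling, PDXK, the kinase that phosphorylates the vitamin, fell in KO against control by 0.55 ± 0.08 (adjusted p = 2.28e-06) but had 0.10 when corrected (adjusted p = 0.234). In OE against control none of the 4 was called by edgeR, DESeq2 or limma-voom, and 0 had an unadjusted p under 0.05 in edgeR.

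Set directly against OE cells, KO cells had lower levels of 6 of the 13 serine and glycine genes, while 7 were not called, PSPH among them (-0.18 ± 0.14, adjusted p = 0.286). The log2 fold change of KO against OE was -2.24 ± 0.11 for PSAT1 (adjusted p = 1.02e-13), -1.91 ± 0.17 for SLC1A4 (adjusted p = 2.36e-09), -1.60 ± 0.15 for SLC6A9 (adjusted p = 3.29e-09) and -0.94 ± 0.10 for PHGDH (adjusted p = 1.53e-08), all lower in KO cells. Of the mitochondrial folate enzymes, MTHFD2 had -0.77 ± 0.12 (adjusted p = 4.69e-06) and SHMT2 -0.58 ± 0.08 (adjusted p = 1.34e-06). AHCY was higher in KO than in OE cells by 1.15 ± 0.08 (adjusted p = 6.88e-11) and PDHB by 1.01 ± 0.11 (adjusted p = 4.75e-08). GGH at 0.29 ± 0.12 (adjusted p = 0.0448) was not called when corrected (0.007, adjusted p = 0.966) or without any library but KO replicate 2 and OE replicate 3 (0.23 to 0.29, adjusted p from 0.0515 to 0.153), and PDXK at -0.52 ± 0.08 (adjusted p = 3.42e-06) had 0.08 when corrected (adjusted p = 0.347). These values share libraries with the comparisons against control above.

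**Figure D5:**
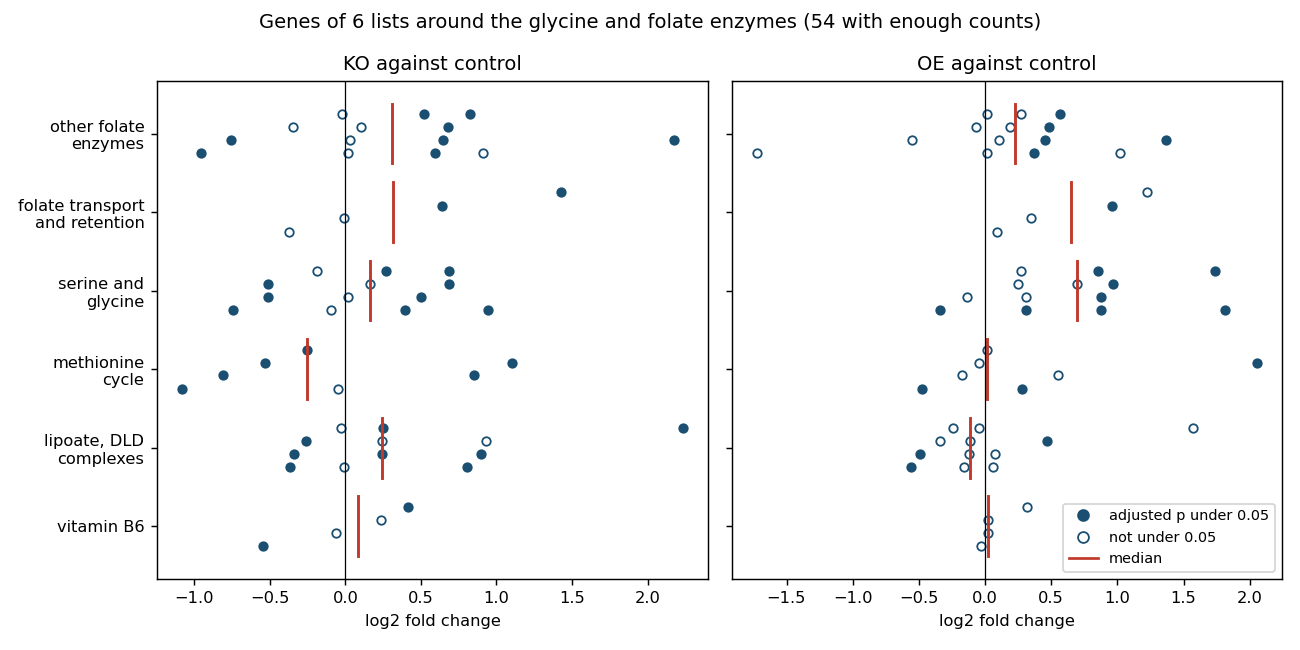
Log2 fold change (horizontal axis) of the 54 list genes with enough counts, by list, in KO against control and OE against control; filled points passed an adjusted p of 0.05, open points did not, and the red line is the list's median. In OE cells the serine and glycine list has its median at 0.70, with SLC1A4 and PSAT1 farthest to the right, and in KO cells points of every list lie on both sides of 0.

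The plot of list genes shows that KO cells had called genes to the left and right of 0 in 5 of the 6 lists, all but folate transport. In OE cells called genes to the left of 0 were SFXN3, AHCYL2, DBT and BCKDHB.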

How the data were processed

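RNA of N/TERT keratinocytes was poly-A selected and read in paired ends, per the labels' protocols. The deposited values are raw counts per gene, made by the authors with featureCounts 1.5.2 on Ensembl release 101 of GRCh38, per the file headers. FastQC, Subread, HISAT2 1.03, DESeq2 and featureCounts 0.1.0 stand in the submitters' processing notes. The header command sets no option for pairs, strand, multi-mapping or overlapping genes, so mates may be counted separately, and copies and overlapping or antisense genes are uncertain.

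Libraries were grouped by genotype and title. No pair of replicates agreed within sampling noise (chi-square per degree of freedom 2.74 to 11.6). Counts of all 9 libraries were fitted with edgeR 4.0.16 (R 4.3.3, limma 3.58.1 and DESeq2 1.42.0) by quasi-likelihood with the group as the only term, after filterByExpr (minimum count 10) and TMM scaling. Contrasts were two-sided, and a Benjamini-Hochberg adjusted p under 0.05 was called. The common biological coefficient of variation was 10.2%. The correction entered a loess surface (span 0.3) of log2 CPM over exon length and GC content of each library as an offset. GC content was known for 13341 of 13390 tested genes (99.6%). The fit was tested on counts simulated from the mean levels and dispersions of all 9 libraries, with 200 of 13390 genes changed in KO. It called 47%, 75.4% and 92.3% of changes of 0.5, 1 and 2 (log2), and 10 of 13190 unchanged genes. In the data 51.9% of genes were called in KO against control, far more than were changed here. The simulated shares therefore may not carry over. Intervals of count ratios are 95% exact for independent counts, and too narrow if mates were counted separately.

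The members, lists, rules and the correction were chosen with earlier results of these data known, and the CCAAT motif was added after the promoters were read. The text names the 8 members, SGPL1, up to 4 called genes of each list and comparison by smallest p, the 5 tested genes on either side of GLDC and the 5 nearest in pattern. Not every gene so picked is given its values in every comparison. Some genes picked by the rule are not reported here. Other settings were limma-voom, DESeq2's size factors and its Wald test, 2 other filters, fits of the compared groups alone, a replicate block from the titles, and leaving out each of the 9 libraries.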

Additional observations from a re-analysis of the deposited data

How the results depend on the processing

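The counts of called genes stayed within 1.5 times their value in every setting. With each library left out in turn they ranged from 6033 to 7188 in KO against control, from 1735 to 2593 in OE against control and from 6873 to 7633 in KO against OE. Of 1422 values for 79 results, 1350 kept their direction and side of the threshold, 55 kept the direction but were no longer called, 5 became called and 12 changed sign. With the length and GC trend removed, the log2 fold changes that changed sign in KO against control were those of GCSH (-0.004), SHMT1 (0.12, also with the block), MTHFD1 (0.18, also with the block) and PDXK (0.10), and PDXK in KO against OE (0.081, or 0.083 with the block). ALDH1L2 in KO against control ranged from -2.38 to 0.08 with libraries left out, the last without control replicate 3, and GCSH in OE against control from -0.23 to 0.075. The cause was not tested.

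The replicate numbers were not stated to pair libraries. Deviations of same-numbered libraries correlated by -0.0772 to 0.066, and 3 of 9 libraries correlated best with their own number. With the replicate block 6907, 2468 and 7669 genes were called in KO against control, OE against control and KO against OE, and of the members SHMT1 in OE against control lost its call. Depth limits ALDH1L2, AMT and GLDC outside KO cells, where a library held at most 36 counts.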
